A study of Mus musculus with 12 samples.

Results

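The livers of female and male C57BL/6J mice that had eaten simvastatin were compared with each other across all autosomal genes, to find which liver functions differed between the sexes under the drug. Simvastatin is a statin, a drug that lowers plasma cholesterol by inhibiting its synthesis. The comparison used 6 of the 12 livers of the series, 3 from females and 3 from males, all from mice whose chow carried 0.1 g simvastatin per kg for 4 weeks (per kg body weight by the sample labels, per kg food by the study's methods). The other 6 livers, 3 female and 3 male, came from mice on the same chow without the drug and served as a reference for sex differences in its absence. The inbred wild-type mice came from The Jackson Laboratory and were 8 to 10 weeks old when the diets began, so every group shared strain, supplier and base diet, and statin and chow livers came from different animals. Of 11968 genes that passed the deposited filter (above 1 CPM, the reads of a gene scaled to a fixed total per liver, in at least 6 livers), 11584 lay on autosomes and form the results below. Genes on X, Y and the mitochondrial genome were tested in the same fit and are not described.

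Poly(A) RNA was sequenced to between 48781240 and 60419223 counted reads per statin liver, as the deposited table sums. These totals exceed the average depth stated in the study's methods, and the difference could not be resolved from the files. The labelled sexes matched the sex-linked transcripts in all 12 livers: Xist lay at 203 to 637 CPM in females and at 0.574 to 0.969 CPM in males, and Ddx3y at 0.200 to 0.412 CPM in females and 60.4 to 74.5 CPM in males. Albumin alone took 5.71% to 12.7% of the counts of a liver. The statin livers varied more among themselves than the chow livers did, with a common dispersion (the squared coefficient of variation between replicates) of 0.0534 in a fit of the statin livers alone and 0.0223 in one of the chow livers alone. Counts of 3 statin livers (female 1, female 2 and male 1) depended on transcript length with a slope steeper than 0.1 log2 units per doubling of length. Levels below are CPM after TMM scaling, a log2 difference is females minus males with its standard error, and a gene is called at an adjusted p under 0.05 in edgeR's quasi-likelihood test.

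Sex differences in rodent liver are largely set by growth hormone, which males secrete in sharp pulses and females more continuously. The hormone acts through its receptor, the kinase JAK2 and the transcription factor STAT5, and its pattern is known to determine which cytochrome P450s, sulfotransferases and secreted urinary proteins the hepatocyte makes. Many of these proteins clear steroids, bile acids, drugs and dietary toxins, so the sexes handle such compounds differently.

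On simvastatin, 714 autosomal genes were called (6.16% of those tested), 493 with higher levels in females (4.26%) and 221 with higher levels in males (1.91%). These shares are the background for the called counts of the gene lists. An unadjusted p under 0.05 was reached by 2242 of the 11584 genes, the background for the unadjusted counts of the gene lists. The median called log2 difference was 1.07 among the female-higher genes and -1.06 among the male-higher ones. Differences above 4 log2 units were reached by 32 genes in females and 28 in males. The 3 female and 3 male statin livers did not overlap for 491 of the 493 and for 220 of the 221 called genes, where 19.5% of all tested autosomal genes showed no overlap between those livers. The count fell to 356 without male statin liver 2 and to 434 without male statin liver 3. Without the 3 livers of the steepest length trend 584 genes were called, 308 of them among the 714. With library size alone in place of TMM scaling, which moved the median log2 difference of all autosomal genes to -0.105, the split was 336 female-higher to 320 male-higher. Small differences can thus change sign with the scaling. None of the 153 called genes followed through the alternatives (the 24 with the largest differences and the called members of the gene lists among them) changed sign under any scaling or with any liver left out, and 135 of the 153 were still called with library size alone.

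The 12 largest female-higher differences were all in drug- and steroid-metabolising enzymes of the sulfotransferase and P450 families. Cyp3a16, a P450 of the steroid-hydroxylating Cyp3a family (chr5:145436309-145469723 in GRCm38 by GENCODE vM21, as for all gene positions here, with 13 exonic blocks), lay at 191, 138 and 258 CPM in the female statin livers and at 0.103, 0.116 and 0.214 CPM in the male ones. Its log2 difference was 10.38 ± 0.46 (adjusted p = 2.09e-08), and no male liver came near any female liver. Cyp2a4, which hydroxylates testosterone (chr7:26307169-26315088), lay at 2245, 2545 and 1501 CPM against 4.12, 4.33 and 4.94 CPM (8.87 ± 0.29, adjusted p = 2.92e-09). Again the sexes were far apart. Cyp3a41a, Cyp3a44, Cyp2b13, Sult2a1, Sult2a2, Sult2a3 and Sult3a1 were further members of the 12. For the remaining 3 genes male reads were so few that a ratio of group totals is given instead of a fitted fold, with intervals that cover counting error only and take each deposited count as 1 read. Sult2a5 had 959 counts in the 3 female livers and 0 in the 3 males, which puts it at least 278-fold higher in females at a floor of 3 counts over the group. Sult3a2 had 838 counts against 1 (ratio 730, 95% exact interval 131 to 28860), and Cyp3a41b had 3884 against 2 (ratio 1691, 468 to 13970).

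The 12 largest male-higher differences comprised 6 major urinary proteins, 3 P450s, a fatty acid elongase, a steroid dehydrogenase and an N-acetyltransferase-like gene. Hsd3b5, a 3-ketosteroid reductase of steroid breakdown (chr3:98618634-98630252), lay at 1.22, 0.992 and 0.775 CPM in female and 205, 156 and 136 CPM in male statin livers (-7.37 ± 0.26, adjusted p = 4.08e-09). Mup20, the urinary pheromone carrier darcin (chr4:62050234-62054158), lay at 40.4, 28.7 and 33.5 CPM against 3046, 4276 and 5171 CPM (-6.93 ± 0.30, adjusted p = 2.09e-08). Elovl3, which elongates saturated fatty acids (chr19:46131897-46135694), lay at 0.951, 0.627 and 1.09 CPM against 129.5, 90.1 and 77.3 CPM (-6.80 ± 0.36, adjusted p = 1.41e-07). In each of these genes the lowest male liver was far above the highest female liver. Cyp4a12a and Cyp4a12b, Mup1, Mup7, Mup11, Mup12 and Mup14, Nat8f5 and Cyp2d9 completed the 12. Members of the Mup, Sult2a, Sult3a, Cyp2b, Cyp2c, Cyp3a41, Cyp4a12 and Acot families are near-copies of one another, so the split of reads among the copies is uncertain in every value given here.

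**Figure D1:**
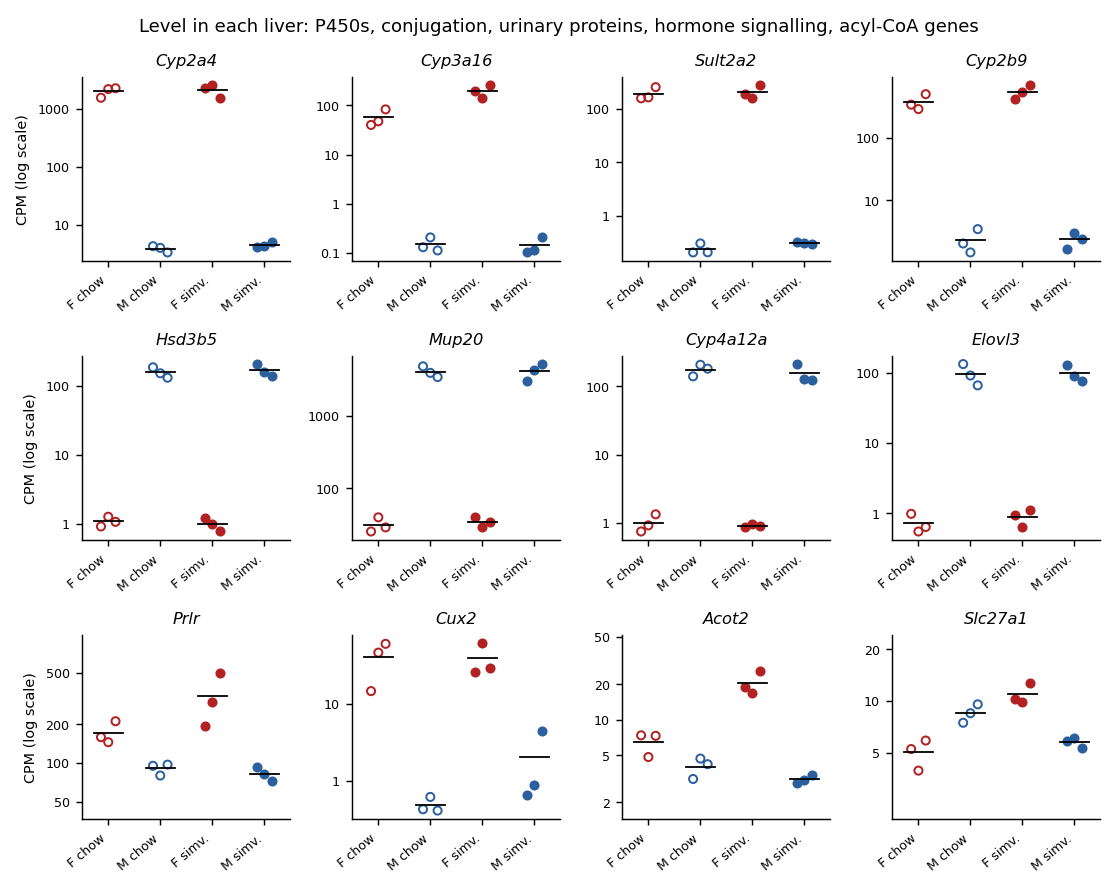
Level of 12 genes in each of the 12 livers, in CPM on a log scale, with chow livers as open circles, simvastatin livers as filled circles, females in red, males in blue and a line at each group's mean. On simvastatin the female and male livers do not overlap for any of the 12 genes. Cyp2a4 spans 1501 to 2545 CPM in female and 4.12 to 4.94 CPM in male statin livers.

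The sequence around the transcription start was compared for 2 pairs of family members. The windows of Cyp3a41a (chr5:145720087-145720386, minus strand) and Cyp3a41b (chr5:145584681-145584980, minus strand), each from 250 bases before to 50 bases after the start in RefSeq on GRCm38.p6, were 97.3% identical and are shown because both genes belong to the 12 largest female-higher differences. Capitals mark the 8 positions at which they differ when set side by side without gaps. In an alignment with gaps allowed, the windows of Acot1 and Acot2 were 51.3% identical, and they are not shown.
Cyp3a41a: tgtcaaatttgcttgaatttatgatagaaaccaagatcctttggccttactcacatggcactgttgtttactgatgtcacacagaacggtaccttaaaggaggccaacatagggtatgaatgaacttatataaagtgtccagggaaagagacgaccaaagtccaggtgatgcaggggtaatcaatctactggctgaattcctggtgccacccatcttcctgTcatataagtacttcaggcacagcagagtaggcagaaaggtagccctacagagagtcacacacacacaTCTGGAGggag
Cyp3a41b: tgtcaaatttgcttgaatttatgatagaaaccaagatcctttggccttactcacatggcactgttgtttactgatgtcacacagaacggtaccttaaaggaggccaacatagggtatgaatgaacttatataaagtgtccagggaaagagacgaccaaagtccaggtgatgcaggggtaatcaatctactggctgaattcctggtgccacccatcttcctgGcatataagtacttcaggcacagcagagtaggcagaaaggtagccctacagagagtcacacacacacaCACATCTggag
Cyp3a41a lay at 264, 210.2 and 270.5 CPM in female statin livers and at 0.267, 0.406 and 0.273 CPM in male ones (9.61 ± 0.23, adjusted p = 2.6e-10).

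Most of these differences were present on chow as well. In the chow livers 1203 autosomal genes were called (10.4%), 674 higher in females (5.82%) and 529 higher in males (4.57%). Both diets shared 270 female-higher genes, which were 54.8% of the calls on simvastatin and 40.1% of those on chow, and 151 male-higher genes, 68.3% and 28.5%. Of the 674 genes higher in females on chow, 634 kept that sign on simvastatin and their median log2 difference was 0.97 on chow and 0.66 on simvastatin. Of the 529 genes higher in males on chow, 451 kept their sign, with medians of -0.83 and -0.36. These genes were chosen on the chow livers, so the medians are a description and no test of diet. Across all autosomal genes the log2 differences on the 2 diets had a Pearson r of 0.82 and a Spearman rho of 0.56, a description over genes of the same libraries and not over replicates.

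Whether a sex difference itself differed between the diets was tested by the interaction of sex and diet in the same fit. No autosomal gene passed (lowest adjusted p = 0.0997 by edgeR), while 940 had an unadjusted p under 0.05, DESeq2 called 128 and a fit of all genes with any count called 101. Differences between the diets in the paragraphs below are therefore given as values. Leaving out female statin liver 2 gave 14 interaction calls, and leaving out the 3 livers with the steepest length trend gave 562, in a fit where 1 female statin liver remained and was assumed to vary like the other groups.

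**Figure D2:**
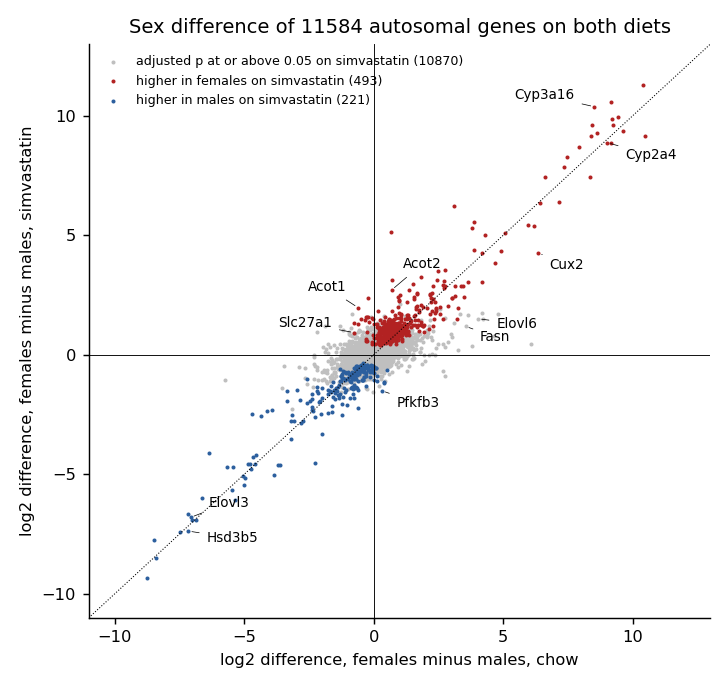
Log2 difference between females and males of 11584 autosomal genes on chow (horizontal axis) and on simvastatin (vertical axis), with the 493 female-higher calls on simvastatin in red, the 221 male-higher calls in blue and a dotted line of equal difference. Genes with large differences lie along the line. Acot1, Slc27a1 and Pfkfb3 lie on opposite sides of 0 on the 2 diets.

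Among 21 tested genes of the growth hormone and STAT5 pathway, 6 were higher in females and 1 in males, with a median log2 difference of 0.12. The called share was 33.3%, against 6.16% over all genes. Prlr, the prolactin receptor (chr15:10177238-10349180), lay at 193, 299.6 and 499 CPM in the female statin livers and at 93.0, 81.5 and 72.7 CPM in the male ones (2.00 ± 0.29, adjusted p = 0.0012). On chow its levels were 158, 145 and 211 CPM in females and 94.9, 79.7 and 96.9 CPM in males (0.92 ± 0.28, adjusted p = 0.0549), and the interaction did not pass (adjusted p = 0.473). The sexes did not overlap on either diet. Cux2, a female-specific repressor of male-biased genes, lay at 25.8, 61.6 and 29.4 CPM against 0.656, 0.890 and 4.52 CPM (4.26 ± 0.71, adjusted p = 0.00364). Male statin liver 3 was the high male, and without it the difference was 5.65. Tox, Trim24, Igfbp3 and Stat5a were the other female-higher members, with log2 differences of 1.26, 1.09, 1.21 and 0.56. Stat5a lost its call in 15 of 23 alternatives, and the 6 female-higher members became 4 in a fit of the statin livers alone. Foxa1, a pioneer factor of liver enhancers, was higher in males (-0.66 ± 0.15, adjusted p = 0.0221), and lost its call without female statin liver 1, male statin liver 1, male statin liver 3 or the 3 livers of the steepest length trend, and in a fit of the statin livers alone.

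STAT5 binds the palindrome TTCNNNGAA, which reads the same on both strands, and this motif was searched for in the RefSeq windows around the starts of 9044 of the 11584 genes. It was found in 8.51% of all those windows, in 28 of 365 windows of female-higher genes (7.67%) and in 12 of 168 windows of male-higher genes (7.14%). The matches of 3 called genes are shown with 16 bases on either side and the motif in capitals, from the 2 largest female-higher differences and a male-higher one among the named and listed genes with a match. A match describes the letters and is no evidence of binding.
Sult3a1: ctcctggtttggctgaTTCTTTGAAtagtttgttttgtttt
Slc22a26: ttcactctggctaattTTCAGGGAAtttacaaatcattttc
Nr0b2: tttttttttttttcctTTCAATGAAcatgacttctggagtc
The first lies at chr10:33857597-33857637 on the plus strand, the second at chr19:7802784-7802824 on the minus strand and the third at chr4:133553269-133553309 on the plus strand, and the motif begins 109, 141 and 91 bases before the start of its gene.

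Of 28 tested P450s of the Cyp2a, Cyp2b, Cyp2c, Cyp2d and Cyp2j families, 9 were higher in females and 4 in males, with a median of 0.33. The called share was 46.4%, against 6.16% over all genes. The female-higher members were Cyp2a4, Cyp2a22, Cyp2b9, Cyp2b13, Cyp2c38, Cyp2c39, Cyp2c40, Cyp2c68 and Cyp2c69. Cyp2b9 lay at 415, 535 and 701 CPM in females and 1.68, 3.02 and 2.39 CPM in males (7.86 ± 0.42, adjusted p = 1.41e-07). Cyp2c69 lay at 640.2, 319 and 429 CPM against 1.17, 2.28 and 1.03 CPM (8.27 ± 0.58, adjusted p = 2.1e-06). In males Cyp2d9, a testosterone 16-alpha-hydroxylase, reached 1366, 1024 and 941 CPM against 34.2, 25.8 and 34.9 CPM in females (-5.13 ± 0.26, adjusted p = 8.38e-08). Cyp2c54, Cyp2c67 and Cyp2j9 were the other male-higher members. Of these, Cyp2c54 lay at 71.4, 48.9 and 170.3 CPM in female and 312, 284 and 243 CPM in male statin livers (-1.53 ± 0.34), where the chow females lay at 30.7, 29.8 and 29.2 CPM and the chow difference was -3.34 (interaction adjusted p = 0.305). The count of 4 male-higher members became 1 without male statin liver 1, without male statin liver 2 and in a fit of the statin livers alone.

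The Cyp3a family had 4 female-higher members of 8 tested, all named above, and none higher in males, and Cyp3a11, Cyp3a13, Cyp3a25 and Cyp3a59 were not called by edgeR, where DESeq2 called 5 members female-higher and 1 male-higher. Of 6 Cyp4a P450s, which omega-hydroxylate fatty acids, Cyp4a12a and Cyp4a12b were higher in males and Cyp4a31 in females. Cyp4a31 lay at 20.7, 20.1 and 52.6 CPM in female and at 8.27, 6.23 and 3.68 CPM in male statin livers (2.36 ± 0.40, adjusted p = 0.00415). The chow livers overlapped for this gene, at 10.03, 6.26 and 7.44 CPM in females and 9.56, 6.86 and 11.5 CPM in males (-0.23 ± 0.39, interaction adjusted p = 0.24). The 1 female-higher Cyp4a member became 2 without female statin liver 2 and 3 without the 3 livers of the steepest length trend.

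Flavin monooxygenases oxidise nitrogen and sulfur in drugs. Fmo2, Fmo1 and Fmo4 were higher in females by 2.20, 0.76 and 0.93 log2 units. Fmo1 lay at 275, 314 and 336 CPM in female and at 183, 179 and 184 CPM in male statin livers (adjusted p = 0.00381), with no overlap. Fmo5 was not called (adjusted p = 0.999). Fmo1 and Fmo4 lost their calls in a fit of the statin livers alone, and Fmo4 also without the 3 livers of the steepest length trend.

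Sulfotransferases had the most female-higher members of the conjugating families, 8 of 13 tested, with 2 male-higher ones and a median of 1.14. Sult2a2, which sulfates hydroxysteroids and bile acids, lay at 189, 155 and 275 CPM in females and 0.328, 0.310 and 0.292 CPM in males (9.37 ± 0.34, adjusted p = 4.85e-09). Sult2a8, a bile acid sulfotransferase, ran the other way within the same family, at 227, 118 and 412 CPM in females and 759.6, 1064 and 1084 CPM in males (-1.94 ± 0.36, adjusted p = 0.0078). Sult5a1 was the second male-higher member, and Sult1a1 and Sult1c2 were higher in females by 0.81 and 1.14. Among 14 UDP-glucuronosyltransferases 1 was called in each direction, Ugt1a5 in females (1.75 ± 0.43) and Ugt2b1 in males (-1.60 ± 0.21, adjusted p = 0.000731). Those calls were 14.3% of the list, against 6.16% of all genes. The exons that Ugt1a genes share make the read split among them uncertain. Among 20 glutathione S-transferases Gstp3 and Mgst3 were higher in females and Gsta2 and Gstp1 in males. Gstp1, a pi-class transferase, lay at 159, 116 and 91.5 CPM in female and at 738, 619 and 587 CPM in male statin livers (-2.41 ± 0.21, adjusted p = 1.76e-05). Of 12 carboxylesterases, which cleave esters in drugs and lipids, Ces1c and Ces2g were higher in females and Ces2a, Ces3a and Ces3b in males, Ces3a at 379, 426 and 543 CPM against 2162, 1572 and 1416 CPM (-1.93 ± 0.21, adjusted p = 0.000123).

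The smaller of these counts turned on single livers. The 2 female-higher carboxylesterases became 0 without male statin liver 2, 0 without male statin liver 3, 0 in a fit of the statin livers alone and 1 without female statin liver 3. The 2 male-higher sulfotransferases became 1 without female statin liver 2 or male statin liver 2 and 0 in the statin livers alone. For the glucuronosyltransferases, the female call was lost without female statin liver 2, male statin liver 1 or male statin liver 2, and 2 members were male-higher without female statin liver 1 or 3, 5 with DESeq2 and 6 with the length trend removed. The 2 female-higher glutathione S-transferases became 1 without female statin liver 1 or 3 or male statin liver 1 or 2, and 0 in the statin livers alone or without the 3 livers of the steepest length trend. The 2 male-higher ones became 1 without female statin liver 2 or 3 or male statin liver 2.

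Transporters of organic anions and cations included 5 female-higher and 2 male-higher genes of 19. Slco1a1, an uptake carrier for bile acids, steroid conjugates and drugs, lay at 41.4, 20.5 and 20.5 CPM in female and 744, 740.3 and 657 CPM in male statin livers (-4.70 ± 0.54, adjusted p = 0.000192). Its relative Slco1a4 was higher in females (1.75 ± 0.24, adjusted p = 0.000963). In the Slc22 cluster of chromosome 19, Slc22a26 lay at 105, 191 and 273 CPM in females and 0.841, 1.04 and 1.40 CPM in males (7.43 ± 0.38), while its neighbour Slc22a28 lay at 0.449, 0.104 and 0.457 CPM against 8.37, 9.21 and 8.39 CPM (-4.69 ± 0.40). Slc22a27, Slc22a29 and the carnitine transporter Slc22a5 were the other female-higher members.

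Genes of steroid metabolism divided into 2 female-higher and 4 male-higher of 25 tested, with a median of 0.02. Cyp17a1, a P450 of androgen synthesis, lay at 389, 401 and 369.9 CPM in female and 27.3, 42.8 and 64.2 CPM in male livers (3.11 ± 0.37, adjusted p = 0.000239). Esr1, the oestrogen receptor alpha, was higher in females (1.51 ± 0.36, adjusted p = 0.0276). Hsd3b2, Hsd3b5, Srd5a1 and Cyp7b1 were higher in males. The 2 female-higher members became 1 without female statin liver 2 or 3 or male statin liver 2. The bile acid list, which shares Cyp7b1 and both Slco1a carriers with the lists above, held 5 male-higher and 2 female-higher genes of 29, with a median of -0.10. Cyp7b1, of the alternative pathway of bile acid synthesis, lay at 16.3, 14.01 and 16.7 CPM in females and at 175, 93.7 and 68.7 CPM in males (-2.84 ± 0.30, adjusted p = 8.7e-05). Nr0b2, the repressor SHP that restrains bile acid synthesis, lay at 5.40, 6.67 and 11.3 CPM in females and at 41.2, 33.4 and 26.4 CPM in males (-2.11 ± 0.32, adjusted p = 0.0017), with a chow difference of -1.05 ± 0.31 (interaction adjusted p = 0.531). Cyp27a1 and Scp2 were also higher in males, each losing its call in 12 of 23 alternatives, and the basolateral exporter Abcc4 was higher in females (1.87 ± 0.29). The 5 male-higher members became 3 without female statin liver 1, male statin liver 1 or male statin liver 2 and in the statin livers alone, and 2 without the 3 livers of the steepest length trend. Cyp7a1, the rate-limiting enzyme of the classical pathway, was not called on simvastatin. It lay at 142, 153 and 621 CPM in females and 99.6, 131 and 164 CPM in males (1.22 ± 0.47, adjusted p = 0.163), so the sexes overlapped and female statin liver 3 stood highest. Without that liver the difference was 0.17 (adjusted p = 0.8065), and without any other statin liver it lay between 1.05 and 1.54. On chow Cyp7a1 was higher in males (-1.90 ± 0.48, adjusted p = 0.025, interaction adjusted p = 0.24).

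Of 21 major urinary protein genes listed, 16 were tested and 15 of them were higher in males on both diets, with a median of -2.55 on simvastatin and -4.41 on chow. Mup3 lay at 1958, 1164 and 1882 CPM in female and at 7692, 11422 and 10922 CPM in male statin livers (-2.59 ± 0.26, adjusted p = 5.07e-05). The summed level of the 16 genes was 1437 to 2536 CPM in female and 13900 to 20490 CPM in male statin livers. Individual copies may trade reads, and the family sum was far apart between the sexes in all livers.

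**Figure D3:**
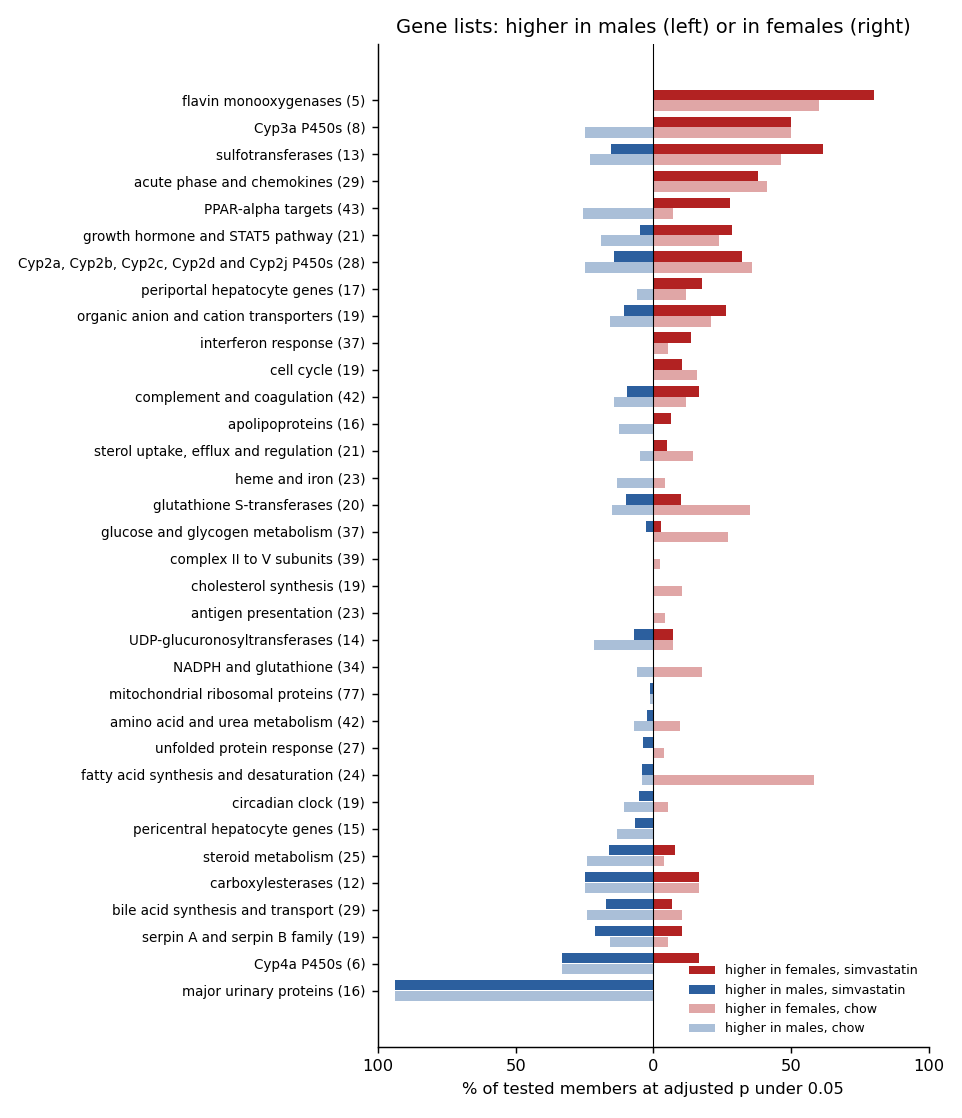
Percentage of the tested members of each gene list (number tested in parentheses) at an adjusted p under 0.05, with genes higher in males drawn to the left in blue and in females to the right in red, simvastatin in dark and chow in pale bars. All but 1 of the 16 urinary protein genes were higher in males on both diets. For fatty acid synthesis the chow bar has 14 of 24 members higher in females and the simvastatin bar has none.

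PPAR-alpha is the nuclear receptor through which fatty acids switch on their own oxidation in the liver, and its targets cover acyl-CoA hydrolysis, mitochondrial and peroxisomal beta-oxidation and fatty acid uptake. Of 43 tested targets, 12 were higher in females and none in males on simvastatin, where 4.26% of all genes were called female-higher. The log2 difference was positive for 41 of the 43, with a median of 0.37 against -0.01 over all autosomal genes. On chow 3 were higher in females and 11 in males, with a median of -0.50, and 33 of the 43 genes were negative on chow and positive on simvastatin. The number of female-higher members on simvastatin was 7 without male statin liver 3, 8 without female statin liver 1 and 8 without male statin liver 2, 8 in a fit of the statin livers alone, 19 without the 3 livers with the steepest length trend, and never accompanied by a male-higher member.

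Among the acyl-CoA thioesterases, which split acyl-CoA into free fatty acid and coenzyme A, Acot1, Acot2, Acot3 and Acot4 were higher in females, and Acot3 and Acot2 had the largest differences of the list. Acot2, the mitochondrial form (chr12:83987861-83993873), lay at 18.9, 17.0 and 26.0 CPM in female and 2.91, 3.12 and 3.41 CPM in male statin livers (2.71 ± 0.23, adjusted p = 1.16e-05). On chow it lay at 7.37, 4.83 and 7.31 CPM in females and 3.16, 4.70 and 4.21 CPM in males (0.69 ± 0.22, adjusted p = 0.0628), with an interaction of 2.02 ± 0.31 (adjusted p = 0.0997). Acot1, the cytosolic form (chr12:84009490-84018371), lay at 44.7, 53.2 and 78.5 CPM against 19.7, 13.2 and 11.97 CPM on simvastatin (1.97 ± 0.27, adjusted p = 0.000921). Its chow levels ran the other way, at 18.2, 9.98 and 11.7 CPM in females and 22.6, 19.96 and 18.2 CPM in males (-0.60 ± 0.27, adjusted p = 0.18, interaction 2.58 ± 0.38, adjusted p = 0.0997). Acot3, a peroxisomal form, lay at 255, 390.2 and 433 CPM against 39.9, 33.3 and 63.5 CPM (2.98 ± 0.32, adjusted p = 0.000116). Acot4, its neighbour, was higher in females by 1.41 ± 0.19 (adjusted p = 0.000652). All 4 genes lie in a cluster on chromosome 12, and reads of their similar coding sequences may be shared.

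Slc27a1, a fatty acid transport protein with acyl-CoA synthetase activity (chr8:71568882-71587302), was the only autosomal gene called in opposite directions on the 2 diets. It lay at 10.3, 9.92 and 12.7 CPM in female and 5.87, 6.09 and 5.35 CPM in male statin livers (0.93 ± 0.17, adjusted p = 0.00735), and at 5.25, 3.94 and 5.89 CPM in female and 7.47, 8.48 and 9.56 CPM in male chow livers (-0.76 ± 0.17, adjusted p = 0.0158). The sexes did not overlap on either diet, and the interaction was 1.69 ± 0.24 (adjusted p = 0.0997). Pdk4, the kinase that shuts pyruvate out of oxidation in fasting, lay at 16.6, 15.9 and 16.5 CPM in females and at 2.11, 2.69 and 3.41 CPM in males on simvastatin (2.58 ± 0.34, adjusted p = 0.000674). Cd36, the fatty acid scavenger receptor, was higher in females on both diets, by 1.51 ± 0.18 on simvastatin (adjusted p = 0.000253) and 1.27 ± 0.18 on chow (adjusted p = 0.000859). Fgf21, a fasting hormone, lay at 3.80, 2.84 and 2.34 CPM against 1.19, 1.04 and 0.934 CPM (1.503 ± 0.33, adjusted p = 0.0177). Crat, Vnn1, Ehhadh and Pex11a completed the 12, with differences of 1.28, 0.94, 0.66 and 0.66. Of 23 alternatives, Vnn1 lost its call in 12, Pex11a in 8, Ehhadh in 7, Fgf21 in 4 and Crat in 2. Ehhadh is the bifunctional enzyme of peroxisomal beta-oxidation and Crat the carnitine acetyltransferase.

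The remaining 31 targets were not called by edgeR, where DESeq2 called 15 of the 43 targets and 20 had an unadjusted p under 0.05, all female-higher. Cyp4a14 lay at 807, 655 and 1934 CPM against 529, 432 and 169 CPM (1.59 ± 0.45, adjusted p = 0.0595), with no overlap and with female statin liver 3 the highest. Without that liver the difference was 0.96 (adjusted p = 0.209), and without female statin liver 2 it was 1.85 (adjusted p = 0.0402). DESeq2 called the gene (adjusted p = 0.00363). PPAR-alpha itself (Ppara) differed by 0.24 (adjusted p = 0.702).

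The nuclear receptor half-site AGGTCA, searched on both strands, was found in 15.5% of the windows around the starts of all tested genes that had one, in 9 of 34 windows of PPAR-alpha targets, in 19.7% of windows of female-higher genes and in 16.1% of those of male-higher genes. The matches of the 2 called targets with the largest differences that hold one are shown with 16 bases on either side and the half-site in capitals, which reads TGACCT on the strand of both genes.
Acot3: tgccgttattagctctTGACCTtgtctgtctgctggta
Cd36: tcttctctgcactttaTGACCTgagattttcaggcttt
The window of Acot3 lies at chr12:84052146-84052183 on the plus strand and that of Cd36 at chr5:17836103-17836140 on the minus strand.

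**Figure D4:**
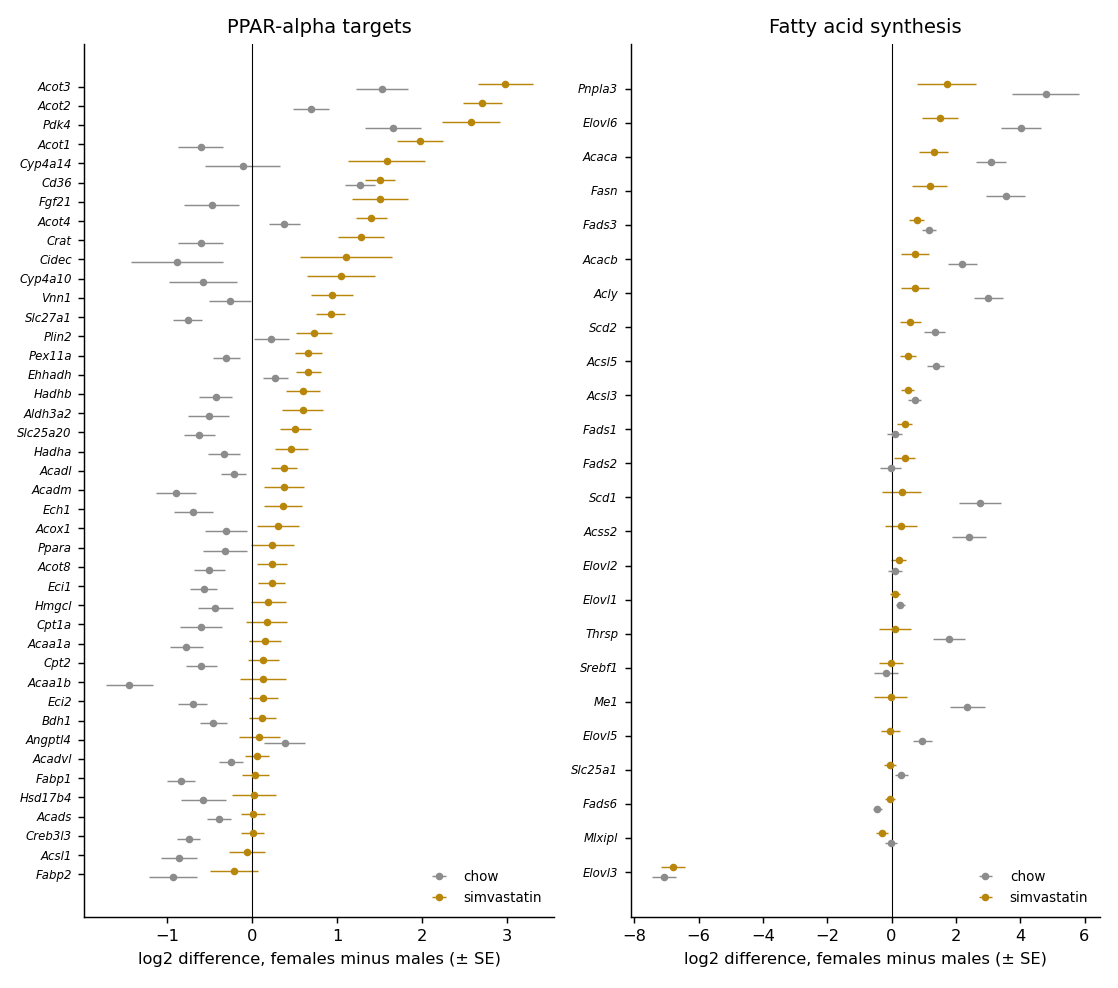
Log2 difference between females and males (± SE) on chow (grey) and on simvastatin (gold) for genes of the PPAR-alpha target list (left, 42 genes) and of the fatty acid synthesis list (right, 24 genes). For the plotted PPAR-alpha targets 40 of 42 simvastatin points lie to the right of 0 and 34 of 42 chow points to the left. For fatty acid synthesis the chow point of Fasn lies at 3.54 and its simvastatin point at 1.19.

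Fatty acid synthesis genes were largely female-higher on chow, and on simvastatin most were not called. This list holds the lipogenic enzymes that turn acetyl-CoA into saturated and monounsaturated fatty acids, together with desaturases and elongases. On chow 14 of the 24 tested members were higher in females and 1, Elovl3, in males, with a median of 1.25. On simvastatin none was higher in females by edgeR, 5 were at an unadjusted p under 0.05, DESeq2 called 2, and Elovl3 alone was higher in males, with a median of 0.36. Fasn, fatty acid synthase, lay at 1096, 1763 and 242 CPM in female and 533, 287 and 539 CPM in male statin livers (1.19 ± 0.54, adjusted p = 0.254). On chow Fasn lay at 5549, 3136 and 2503 CPM in females and 321, 246 and 392 CPM in males (3.54 ± 0.59, adjusted p = 0.00285, interaction adjusted p = 0.405). Acly, ATP-citrate lyase, lay at 642, 675 and 157 CPM against 304, 251 and 331 CPM on simvastatin (0.73 ± 0.42, adjusted p = 0.398). Scd1, the main stearoyl-CoA desaturase, lay at 19551, 25761 and 2810.3 CPM against 6688, 12410.0 and 19556 CPM (0.32 ± 0.61, adjusted p = 0.858).

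These counts turned on 1 liver. Female statin liver 3 was the lowest of the 3 female statin livers for all 14 genes that were female-higher on chow, and it lay below every male statin liver for Fasn, Acly, Scd1 and Elovl6. Without it, 8 members of the list were called female-higher on simvastatin, with Fasn at 1.66 (adjusted p = 0.0239), Acly at 1.16 (adjusted p = 0.0239), Acaca, acetyl-CoA carboxylase, at 1.74 (adjusted p = 0.00671) and Elovl6 at 1.98 (adjusted p = 0.01). Without the 3 livers of the steepest length trend, where liver 3 was the only female left, 7 members were called male-higher. The same liver was the highest statin female for Cyp7a1, Cyp4a14 and Prlr.

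Cholesterol synthesis, the pathway that simvastatin inhibits, held no called gene of 19 on simvastatin by edgeR, 1 at an unadjusted p under 0.05 and 1 by DESeq2, with a median of 0.32 and 16 positive differences. On chow Pmvk and Sqle were the 2 called members, both higher in females. Among 21 genes of sterol uptake, efflux and regulation, Soat1, which esterifies cholesterol, was the called member (0.95 ± 0.23, adjusted p = 0.0315), and of 16 apolipoproteins Apoa4 was. These shares, 4.76% and 6.25%, were close to the 6.16% called over all genes. Apoa4 lay at 3236, 1732 and 3552 CPM in female and 899.8, 1064 and 1139 CPM in male statin livers (1.46 ± 0.24, adjusted p = 0.00337), and at -0.34 ± 0.24 on chow (interaction adjusted p = 0.172). Soat1 lost its call without any 1 of 5 statin livers (all but female statin liver 3), and without female statin liver 2 the female-higher apolipoproteins numbered 2.

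Of 37 glucose and glycogen genes, Pfkfb3 was higher in males and Pck2 in females on simvastatin, against 10 female-higher members on chow. These 2 were 5.41% of the list, where 6.16% of all genes were called. Pck2 lost its call in 14 of 23 alternatives, among them those without female statin liver 1 or 2 or any male statin liver, and 3 members were female-higher without female statin liver 3 and without the 3 livers of the steepest length trend. Pfkfb3, which makes the allosteric activator of phosphofructokinase, lay at 7.52, 8.91 and 5.72 CPM in female and 24.2, 20.02 and 18.7 CPM in male statin livers (-1.51 ± 0.22, adjusted p = 0.0017). On chow it lay at 12.9, 15.7 and 9.33 CPM in females and 7.90, 11.5 and 11.1 CPM in males, where the sexes overlapped (0.32 ± 0.22, interaction -1.82 ± 0.31, adjusted p = 0.137). Of the other genes with the smallest interaction p, Rab30, a Golgi GTPase, lay at 31.9, 26.7 and 42.6 CPM in female and 13.1, 11.5 and 10.5 CPM in male statin livers (1.53 ± 0.18, adjusted p = 0.000248) and overlapped on chow (-0.08 ± 0.18, interaction adjusted p = 0.101). Tbc1d8 and Acpp were female-higher on chow by 1.53 and 2.98, and on simvastatin their differences were -0.01 (adjusted p = 0.993) and 0.87 (adjusted p = 0.103), with interaction adjusted p = 0.109 and 0.194. Mbd1, a methyl-CpG binding protein, was male-higher on simvastatin by -0.64 (adjusted p = 0.0319), and its chow difference was 0.51 (adjusted p = 0.0633, interaction adjusted p = 0.194).

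The acute phase list holds mostly plasma proteins that the hepatocyte releases under inflammatory cytokines. It also holds some chemokines and the metallothioneins Mt1 and Mt2, which are not plasma proteins. Of 29 genes tested, 11 were higher in females and none in males on simvastatin, with a median of 0.91. On chow 12 were higher in females and none in males, with a median of 0.85. Saa1, serum amyloid A, lay at 753, 1608 and 1774 CPM in female and at 59.2, 89.1 and 68.8 CPM in male statin livers (4.25 ± 0.61, adjusted p = 0.0012). Lcn2, the siderophore binder lipocalin 2, lay at 136, 168 and 248 CPM against 6.34, 12.7 and 7.22 CPM (4.39 ± 0.37, adjusted p = 1.38e-05), and Hpx, haemopexin, at 8027, 7089 and 9375 CPM against 3407, 4208 and 3858 CPM (1.09 ± 0.16, adjusted p = 0.00175). In all of these every female liver exceeded every male liver. Saa2, Orm2, Orm3, Apcs, Itih4, Il1rn, Mt1 and Mt2 were the other female-higher members, and Mt2, a metallothionein, lay at 103, 235 and 322 CPM against 36.9, 39.4 and 24.7 CPM (2.71 ± 0.39, adjusted p = 0.00122). Saa3, Crp and the hepcidin gene Hamp were not called, at -0.03, 0.28 and -0.88. The number of female-higher members stayed between 8 and 17 under all alternatives.

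Complement and coagulation genes went both ways, with 7 higher in females and 4 in males of 42 tested. The terminal complement components C6, C8b and C9 and the copy C4a were higher in males, C6 at 26.7, 32.4 and 18.7 CPM in female and 243, 157 and 125 CPM in male statin livers (-2.75 ± 0.26, adjusted p = 3.97e-05) and C9 at 215, 209 and 193 CPM against 627, 579 and 471 CPM (-1.44 ± 0.16, adjusted p = 0.000158). C1qa, C1qb and C1qc, the chains of the recognition molecule, which macrophages make, were higher in females, with Cfi, Mbl2, F10 and Kng2. The 7 female-higher members became 3 without male statin liver 2, 3 without male statin liver 3, 2 in the statin livers alone, 4 without a filter on low counts and 11 with DESeq2, and Mbl2 lost its call in 19 of 23 alternatives. Of 19 serpins, 2 were higher in females and 4 in males, which is 31.6% of the list. Among the male-higher ones, Serpina1e, an alpha-1-antitrypsin copy, lay at 134, 122 and 209 CPM against 3126, 2615 and 2770.1 CPM (-4.19 ± 0.48, adjusted p = 0.000206). The 2 female-higher serpins became 1 without female statin liver 3 or any male statin liver, and the 4 male-higher ones 2 without female statin liver 2 or 3 or male statin liver 2 or 3. Of 37 interferon response genes, Oas1g, Oas2, Oas3, Oasl2 and Ifi44 were higher in females by 0.96 to 1.53, with none higher in males. These 5 calls were 13.5% of the list, against 6.16% of all genes. This count was 0 without female statin liver 1, male statin liver 1 or the 3 livers of the steepest length trend, 1 without male statin liver 2 or 3, 3 without female statin liver 2 or 3, 1 with library size alone and 1 in a fit of the statin livers alone.

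Markers of liver macrophages were largely higher in females as well, and the markers C1qa and C1qb are complement genes already counted above. Of 10 Kupffer cell and macrophage markers tested, 7 were higher in females on simvastatin and 5 on chow, with medians of 0.99 and 0.80, and Vsig4 is not autosomal. Clec4f, which is confined to Kupffer cells, lay at 259, 180.1 and 160.3 CPM in female and at 77.7, 105 and 87.8 CPM in male statin livers (1.15 ± 0.20, adjusted p = 0.00523), and Adgre1, the F4/80 antigen, at 37.7, 46.6 and 25.5 CPM against 18.9, 17.6 and 15.9 CPM (1.07 ± 0.22, adjusted p = 0.0142). The summed level of the 10 markers was 568 to 894 CPM in female and 341 to 426 CPM in male statin livers. In such bulk samples fewer cells of a type and less RNA per cell cannot be told apart. The count of 7 became 3 in a fit of the statin livers alone, 3 without male statin liver 3, 4 without male statin liver 1 or 2 or with library size alone, and 0 without the 3 livers of the steepest length trend. The part of these cells in the acute phase, complement and interferon differences was not tested.

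Of 10 stellate cell and fibroblast markers, Rgs5 and Acta2 were higher in females, with the summed level at 346 to 457 CPM in female and 251.5 to 321 CPM in male statin livers. These 2 calls became 1 without female statin liver 3, male statin liver 2 or male statin liver 3. Of 9 endothelial markers none was called, 4 were at an unadjusted p under 0.05 and DESeq2 called 2. Of B cell markers 2 of 3 tested were higher in females (Cd22 and Cd79b, which summed with Ighm to 11.4 to 20.4 CPM against 6.501 to 9.617 CPM), and Csf3r was the neutrophil marker that passed the filter (3.70, 3.41 and 3.64 CPM against 1.44, 1.66 and 1.38 CPM, 1.26 ± 0.21, adjusted p = 0.00331), while Ly6g was at 0 in all 6 statin livers. The B cell calls became 1 without female statin liver 1 or 2 or male statin liver 1 or 2, and 0 in the statin livers alone or without the 3 livers of the steepest length trend. None of the 2 T and NK cell, 2 cholangiocyte, 4 erythroid and 7 hepatocyte markers tested was called, where 0, 0, 3 and 2 had an unadjusted p under 0.05 and DESeq2 called 0, 0, 2 and 2. The summed level of the hepatocyte markers was 121900 to 164100 CPM in female and 83170 to 96280 CPM in male statin livers. Most of it was albumin, at 98480 to 126600 CPM in females and 63440 to 71320 CPM in males before TMM scaling. On that scale Ahsg did not overlap between the sexes either, while Apoa1, Ttr, Serpina1a, Fgb and Hnf4a overlapped. No adipocyte or gonad marker passed the filter, and Lep was at 0 in all 6 statin livers.

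**Figure D5:**
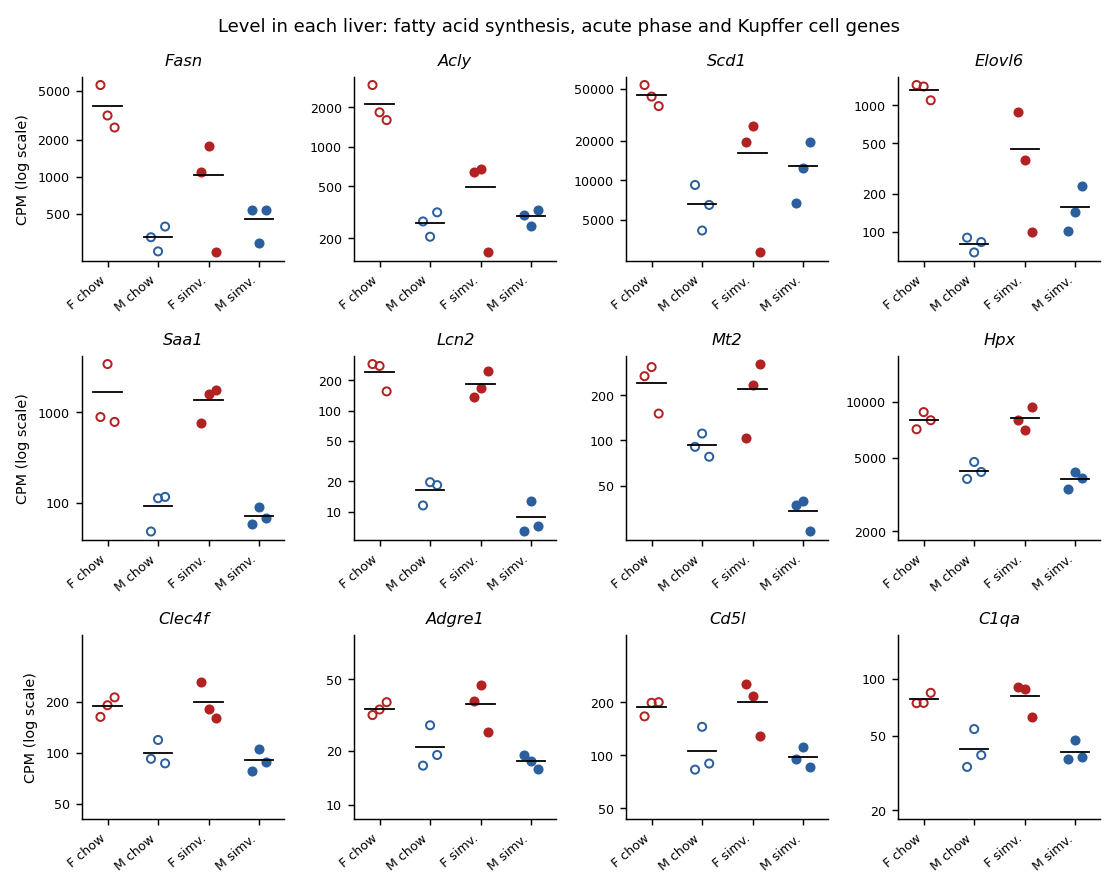
Level of 12 genes in each of the 12 livers, in CPM on a log scale, with chow livers as open circles, simvastatin livers as filled circles, females in red, males in blue and a line at each group's mean. Female statin liver 3 (the right of the 3 filled red circles) lies lowest of the statin females in the upper row, at 242 CPM for Fasn. The acute phase genes of the middle row do not overlap between the sexes on simvastatin.

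The remaining lists, of general cell functions and of some liver functions, had few calls on simvastatin. The 188 tested subunits of respiratory complexes I to V, cytosolic ribosomes and proteasomes included none called by edgeR, 7 at an unadjusted p under 0.05 and 2 called by DESeq2. Among 77 mitochondrial ribosomal proteins Mrps18b was called, with a log2 difference of -0.44. The 34 NADPH and glutathione genes, 23 antigen presentation genes and 23 heme and iron genes had no call by edgeR, with 5, 4 and 2 at an unadjusted p under 0.05 and 1, 1 and 0 called by DESeq2. The differences were positive for 22 of the 23 antigen presentation genes (median 0.31), for 4 of 36 proteasome subunits (median -0.15, against 34 of 36 on chow) and for 13 of the 77 mitochondrial ribosomal proteins (median -0.11). Of 42 amino acid, 27 unfolded protein and 19 clock genes 1 each was called, all male-higher, namely Tdo2 (-0.78), Trib3 (-1.30) and Bhlhe41 (-1.64), which is 2.38%, 3.7% and 5.26% of the lists against 6.16% over all genes. Of 19 cell cycle genes Ccnd1, cyclin D1, and Mcm6 were higher in females, Ccnd1 at 106, 98.5 and 47.9 CPM against 19.1, 16.5 and 24.1 CPM (2.08 ± 0.34, adjusted p = 0.00337). Of 15 pericentral genes of the liver lobule Cyp27a1 was the called member (6.67%). Of 17 periportal genes Apoa4, Aldh1b1 and Ctsc were higher in females (17.6%). Cyp27a1 and Apoa4 were already counted in the bile acid and apolipoprotein lists. The cell cycle calls were 10.5% of their list, and 6.16% of all genes were called. These calls turned on single livers. Those of Mrps18b, Tdo2, Trib3, Bhlhe41 and Cyp27a1 were each lost without male statin liver 2 and in a fit of the statin livers alone, the 2 cell cycle calls became 1 without female statin liver 1 or any male statin liver, and the 3 periportal ones became 1 without male statin liver 3. Without the 3 livers of the steepest length trend there were 3 female-higher heme and iron genes, 3 female-higher pericentral genes, 2 male-higher sterol genes, 3 male-higher clock genes and no female-higher cell cycle gene.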

How the data were processed

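Liver poly(A) RNA of 12 mice was sequenced, and the authors aligned reads with STAR (2.4.1a) to GRCm38, counted them per gene with HTSeq and processed them with edgeR (3.28.1). How HTSeq treated strand is not given in the sources used here, so overlapping and antisense genes may share reads. The authors deposited raw counts per gene of the filtered genes, and CPM values, which are counts scaled by the total of a liver (CPM) before any filter. All CPM values gave back whole reads within 0.02 counts, with no difference between the tables. Genes were matched to GENCODE vM21 (99.9% of 11968).

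The counts were fitted with edgeR (4.0.16, R 4.3.3) by quasi-likelihood, TMM-scaled, with all 12 livers in 4 groups of 3, and p-values were adjusted by Benjamini-Hochberg over all 11968 genes. P-values measure the spread between livers, with the spread of a gene estimated over all 12 livers of both diets. The statin livers varied more than the chow livers (common dispersion 0.0534 against 0.0223). The shared spread can therefore be too small for the comparison on simvastatin. A fit of the statin livers alone called 279 genes, against 714. A design of 3 against 3 cannot go below an exact permutation p of 0.1, so no single-gene permutation test is given. The fit was tested on simulated data. Alternatives were DESeq2 (1.42.0), limma (3.58.1), other scalings and filters, a replicate block, a length correction and each liver left out. Per direction, the 12 largest called, non-overlapping differences with a mean of at least 5 CPM were named, with the 4 smallest interaction p-values and called list members, largest first. Genes whose values are given although uncalled were chosen after their values were seen. Some genes are not reported here. The members and lists were chosen with earlier results of these data known. A count of 0 in a liver allows up to 3 counts, which is 0.0497 to 0.0651 CPM, and intervals and floors cover counting error only.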

Additional observations from a re-analysis of the deposited data

How the results depend on the processing

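The 714 autosomal calls on simvastatin became 1236 with DESeq2 (793 female-higher, 443 male-higher) and 279 in a fit of the statin livers alone (179 and 100), of which 276 were among the 714. A stricter filter on low counts gave 324 female-higher genes. With each liver left out in turn the total lay between 356 and 706, the female-higher count between 233 and 505 and the male-higher count between 123 and 231. The low values came without male statin liver 2 (356) and male statin liver 3 (434). The chow total was 1876 with DESeq2, 2483 without the 3 statin livers of the steepest length trend, and 613 to 1530 with each liver left out. The interaction count of 0 became 128 with DESeq2, 101 without a filter on low counts and 562 without those 3 livers, and lay between 0 and 14 with each liver left out. The comparison without those 3 livers was chosen after seeing the data and gave 584 calls on simvastatin, 308 of them among the 714. The cause of these changes was not tested. Fewer livers entered some fits, and the fit of the statin livers alone took its spread from those livers only.

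Directions reversed for some uncalled lipid genes. Without the 3 livers the log2 difference was -0.77 for Fasn, -0.89 for Acly, -0.90 for Elovl6 and -2.51 for Scd1. Scd1 was at -0.066 in limma and between -0.22 and 0.81 with each liver left out (lowest without female statin liver 2). Of the 153 named called genes 96 were still called in the statin livers alone and 105 to 146 with each liver left out.

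Equal replicate numbers in different groups come from different mice. Blocking on replicate number left 544 genes called on simvastatin (377 and 167), 866 on chow and 0 for the interaction. Deviations of same-numbered female and male statin livers correlated at -0.436 on average (-0.744 to 0.011, 7641 genes), so the numbers were not taken as pairs.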

Other observations

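Genes outside the fixed lists also differed on simvastatin, and those below were chosen after their values were seen. A1bg, a plasma glycoprotein gene, lay at 127, 38.6 and 31.5 CPM in female and 0.144, 0.135 and 0.136 CPM in male statin livers (log2 difference 8.86 ± 0.71, adjusted p = 8.17e-06 by edgeR). Hao2, a peroxisomal hydroxy acid oxidase, differed by 7.44 ± 0.39, and Nt5e, the ectonucleotidase CD73, lay at 72.6, 55.3 and 70.6 CPM against 5.17, 6.13 and 5.78 CPM (3.54 ± 0.17, adjusted p = 6.96e-08). The female and male livers did not overlap for any of these. Lepr, the leptin receptor, was higher in females by 2.43 ± 0.25 and Vldlr, the very low density lipoprotein receptor, by 2.57 ± 0.24.

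Among male-higher genes Susd4, a complement regulator, lay at 1.60, 0.783 and 0.994 CPM in female and 30.6, 27.1 and 22.6 CPM in male statin livers (-4.57 ± 0.27, adjusted p = 3.76e-07). Cyp2u1, a P450 that hydroxylates fatty acids, lay at 3.57, 3.46 and 2.92 CPM against 51.2, 32.3 and 32.2 CPM (-3.54 ± 0.21, adjusted p = 4.4e-07), and Nox4, an NADPH oxidase, at 8.56, 8.62 and 14.7 CPM against 93.1, 68.9 and 54.2 CPM (-2.76 ± 0.26). In each of these genes every male liver exceeded every female liver. Nudt7, a peroxisomal hydrolase of coenzyme A, differed by -2.06 ± 0.34.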
